A study of Mus musculus with 10 samples.

Results

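Human breast cancer cells described by their depositors as estrogen receptor positive were compared in axillary lymph node metastases of mice that kept an estrogen pellet and of mice whose pellet had been taken out 1 week before collection. The comparison used every array of the lymph node site, 6 of the 10 arrays in the series, with 3 mice in each group. The hosts of both groups, and of the other 4 arrays, were female nu/nu mice aged 20 weeks that had been implanted with estrogen pellets. Tumor cells were cut from frozen sections by laser capture, in which chosen cells are lifted off a slide. The RNA was then copied by PCR and labelled with biotin. Mice 6, 11 and 14 gave the estrogen arrays, and mice 9, 10 and 19 gave the withdrawn arrays. Mice 10, 11, 14 and 19 also gave the primary mammary tumors of the remaining 4 arrays. The labels name neither the cell line nor the dose of the pellet, and they do not say how many sections or cells entered each array. Nude mice lack a thymus and have few T cells, so the nodes of these hosts differ from those of an immune-competent animal. The arrays carry human probe sets although the labels give the mouse as organism, so host RNA can be read only by cross-hybridization.

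Estrogen receptor alpha, the product of ESR1, is a transcription factor that is switched on by estradiol. In luminal breast cancer cells the bound receptor raises genes of growth and cell division, MYC and GREB1 among them, and lowers genes that restrain growth or mark a resting, more differentiated cell. Taking the hormone away reverses these changes, and genes with short-lived transcripts move first. The transcription of ribosomal RNA and the assembly of ribosomes follow growth signals in most dividing cells, and MYC is one of their known drivers.

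Each probe set had 1 deposited log2 value per array. Every gene was read from 1 probe set with exactly 1 symbol, the one with the highest mean over the 10 arrays, and 17170 of 19556 genes passed a filter on low values. Array values are given below in the order mice 6, 11 and 14 with estrogen and mice 9, 10 and 19 after withdrawal. A difference is the mean of the estrogen arrays minus the mean of the withdrawn arrays on the log2 scale, so a difference of 1 is a 2-fold ratio, and it is positive where estrogen was higher. The median of all probe sets was 2.70 to 2.79 on the 6 arrays, which is a guide to what an undetected transcript reads.

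The estrogen array of mouse 11 stood apart from the other 5. Its score on the first principal component of the lymph node arrays, which held 63.6% of the variance, was 116, and the other scores lay between −56.7 and 21.2. Correlations between arrays were 0.888 to 0.977 among the estrogen arrays, 0.955 to 0.989 among the withdrawn arrays and 0.882 to 0.982 between the groups. The 18 hybridization control probe sets, which read spiked RNA, averaged 12 in mouse 11 and 12.3 in mouse 19 and 9.47 to 10.6 in the other 4 arrays, so each group held 1 array of the high kind. Neither the array median, the 99th percentile, the 3′ minus 5′ signal of GAPDH and actin nor the hybridization controls differed between the groups beyond their spread (exact permutation test, two-sided, p from 0.6 to 1, where 0.1 is the smallest p that 3 against 3 allows). The number of arrays limits the precision of every value below. Because an array reads RNA from many captured cells, fewer cells of a type and less RNA per cell cannot be told apart.

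As far as human probe sets can tell, the captured tissue read as luminal epithelium in every array. The 13 luminal markers, among them KRT8, KRT18, EPCAM and GATA3, averaged 9.83, 9.21 and 9.89 with estrogen and 10.58, 10.52 and 10.29 after withdrawal. All 3 withdrawn means were above all 3 estrogen means, with 3 of 13 differences positive and a median of −0.49. The list also held ESR1, TFF1, XBP1, AGR2 and ELF3. Its 4 separated members were ELF3, ESR1, GATA3 and XBP1, all downward, and neither the keratins nor EPCAM were separated. Markers of other cell types read far below the luminal markers, at or somewhat above the array median. The probe sets are human and the host cells are mouse, so low values here do not show how much host tissue was captured. The means ranged over the 6 arrays from 2.83 to 2.96 for 11 T and NK cell genes, from 3.35 to 3.73 for 7 B and plasma cell genes, from 3.17 to 3.57 for 9 fibroblast and node stroma genes and from 3.70 to 4.05 for 10 endothelial genes. Myeloid genes (7 tested, 2.73 to 3.61) and basal and myoepithelial genes (6 tested, 3.35 to 4.51) were highest in the estrogen array of mouse 11. Endothelial markers had 8 of 10 positive differences, a median of 0.31 and VWF separated upward, and that median lay between 0.19 and 0.37 when 1 array was left out. Basal markers had 5 of 6 positive and a median of 0.26. Myeloid markers had 4 of 7 positive and a median of 0.43, which was −0.026 without mouse 11. Fat markers had 0 of 4 positive and a median of −0.19, which lay between −0.23 without mouse 9 and −0.14 without mouse 14. Skeletal muscle markers had 2 of 4 positive and a median of −0.017, with DES separated downward. For the other lists the medians were −0.095 (T and NK cells), 0.056 (B and plasma cells) and −0.14 (fibroblasts and node stroma). The part of these cells in the results below was not tested.

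With limma and Benjamini-Hochberg adjustment over the 17170 genes, 0 genes (0%) passed an adjusted p of 0.05, either as deposited or after quantile normalization, and the smallest adjusted p-values were 0.0875 and 0.0804. No single gene below is therefore called, and the values that follow are described array by array. At an unadjusted p below 0.05, 359 genes (2.09%) were higher and 643 (3.74%) lower with estrogen, and after quantile normalization the counts were 480 (2.8%) and 635 (3.7%). When 1 node array was left out, the deposited counts lay between 213 higher and 346 lower without mouse 9 and 895 higher and 1462 lower without mouse 14. Groups did not overlap as deposited for 767 genes higher (4.47%) and 938 lower (5.46%), and after quantile normalization for 939 (5.47%) and 966 (5.63%). A gene is called separated here if every estrogen array lay above, or every one below, every withdrawn array on both scales. That held for 587 genes higher with estrogen (3.42%) and 724 lower (4.22%), or 1311 (7.64%) in all, and member counts below are to be read against these shares. Among separated genes with a difference of at least 1, 112 were higher and 314 were lower, and at a difference of at least 2 the counts were 20 and 55. The median difference of all genes tested was −0.017 as deposited and 0.020 after quantile normalization. It was −0.16 for genes with a mean of 8 to 10 on the deposited scale and −0.066 after quantile normalization.

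Among genes that estrogen is known to raise in breast cancer cells, several were higher in all 3 estrogen nodes. GREB1, an early target of the receptor, read 9.95, 7.92 and 10.12 in the estrogen nodes and 5.79, 6.13 and 7.48 in the withdrawn nodes. Its lowest estrogen value, in mouse 11, was still above the highest withdrawn value, and the difference was 2.86 (SE 0.66, adjusted p = 0.339) as deposited and 2.87 after quantile normalization. The other 3 GREB1 probe sets did not share that sign, since 1 of 4 had it. HSPB8, a small heat shock protein that helps clear misfolded proteins, read 9.29, 8.54 and 10.55 with the pellet and 5.90, 7.29 and 4.46 without it, with a difference of 3.58 (SE 0.80, adjusted p = 0.314) as deposited and 3.58 after quantile normalization. The groups of RAPGEFL1, a relative of the exchange factors for the GTPase Rap, were also apart, at 6.71, 7.05 and 6.12 with estrogen and 5.04, 4.88 and 4.05 after withdrawal, and its difference was 1.97 (SE 0.34, adjusted p = 0.235) as deposited and 2.03 after quantile normalization. MYC, the growth-promoting transcription factor, read 7.23, 6.22 and 7.56 in the estrogen nodes and 5.55, 5.79 and 3.82 in the withdrawn nodes and differed by 1.95 (SE 0.57). The estrogen-induced list was chosen with earlier results of these data known, so its counts are not an independent check. On that list, 63 genes were listed, 57 were on the array and 55 were tested. Of these 40 had a positive difference as deposited and 41 after quantile normalization, the median was 0.47 and 0.50, and 10 genes were separated upward and 3 downward. The median lay between 0.23 without mouse 14 and 0.89 without mouse 11 when 1 array was left out. On the low side of the hybridization controls, with 2 arrays against 2, it was 0.55, and on the high side, with mouse 11 against mouse 19, it was 0.084.

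Other members of the list did not follow its name. TFF1, the trefoil peptide that is the textbook target of the receptor, read 14.02, 14.13 and 14.14 with the pellet and 13.91, 14.12 and 14.09 without it and showed no gap between the groups, at values above the 99th percentile of every array. PGR, the progesterone receptor and another textbook target, did not pass the filter, at 2.06, 2.43 and 2.23 with estrogen and 2.16, 2.19 and 2.10 after withdrawal. TFF3, a second secreted trefoil peptide, was lower with estrogen at 5.25, 4.98 and 6.61 in the estrogen nodes and 8.59, 8.0 and 10.36 in the withdrawn nodes, a difference of −3.38 (SE 0.66, adjusted p = 0.239) as deposited and −3.12 after quantile normalization. AGR2, a protein disulfide isomerase that folds mucins, read 8.19, 8.36 and 10.66 with the pellet and 11.24, 10.92 and 10.47 without it. Its highest estrogen value, in mouse 14, lay above the lowest withdrawn value, in mouse 19. RET, a receptor tyrosine kinase, was separated downward at 7.18, 4.71 and 7.49 with estrogen and 9.45, 8.62 and 9.07 after withdrawal. ESR1, the gene of the receptor, is not a member of the estrogen-induced list. It read 9.22, 5.44 and 10.24 in the estrogen nodes and 11.87, 11.02 and 11.52 in the withdrawn nodes. Its difference was −3.17 (SE 1.06), with 4 of 6 probe sets of that sign. The lowest ESR1 value, in mouse 11, lay far below those of mice 6 and 14, and the difference without mouse 11 was −1.74.

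**Figure D1:**
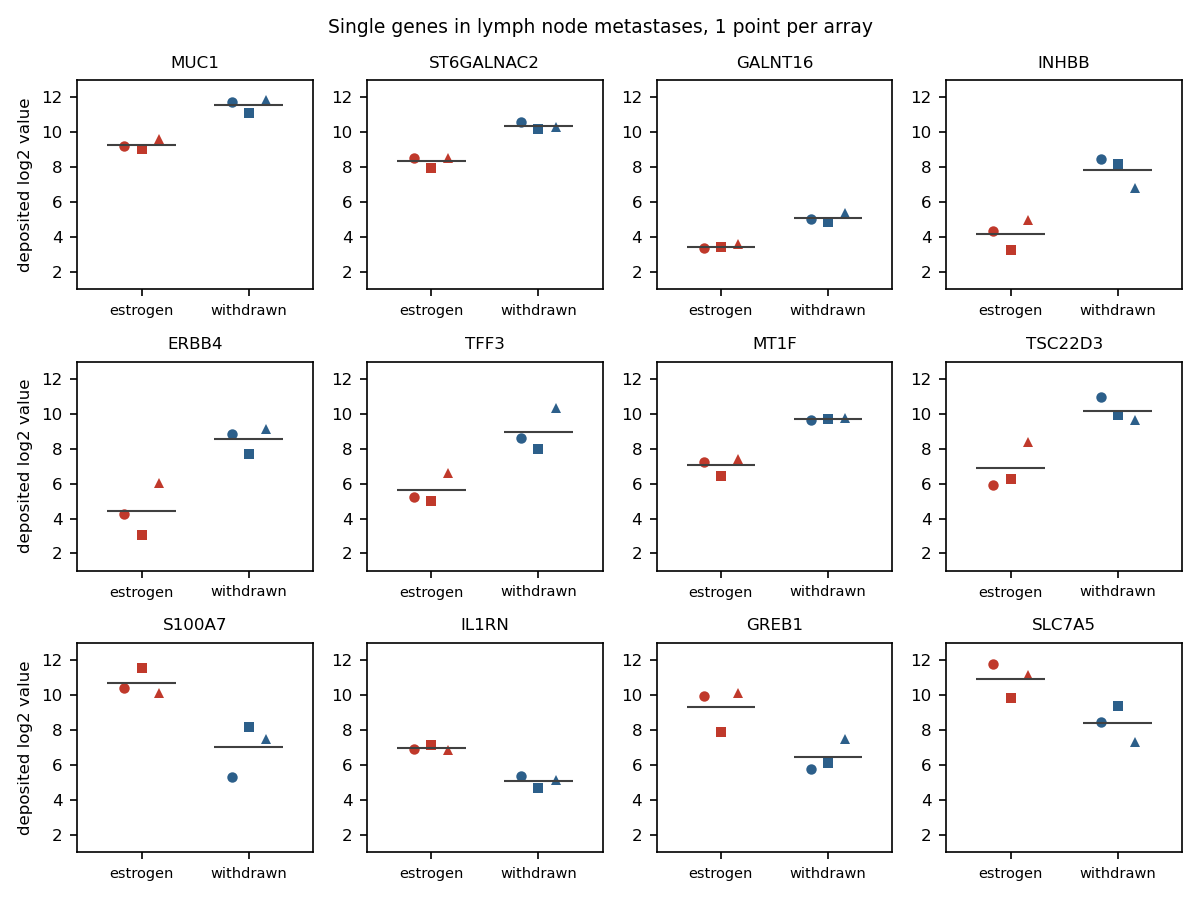
Deposited log2 values of 12 genes in the 6 lymph node arrays, 1 point per mouse (estrogen: circle mouse 6, square mouse 11, triangle mouse 14; withdrawn: circle mouse 9, square mouse 10, triangle mouse 19), with horizontal lines at the group means. The groups do not overlap in any of the 12 panels: MUC1, ST6GALNAC2, GALNT16, INHBB, ERBB4, TFF3, MT1F and TSC22D3 are lower with estrogen, and S100A7, IL1RN, GREB1 and SLC7A5 are higher.

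Genes that estrogen is known to hold down were lower with estrogen in most cases. Of 46 estrogen-repressed genes listed, 44 were on the array and 41 were tested, and 5 of these had a positive difference as deposited and 7 after quantile normalization. The median was −0.69 and −0.52, with 14 genes separated downward and 1 upward. The list means were 6.24, 6.19 and 6.46 with the pellet and 7.46, 7.09 and 6.79 without it, so the 3 estrogen arrays lay below the 3 withdrawn ones. The median stayed between −0.93 without mouse 14 and −0.43 without mouse 9 when 1 array was left out, and it was −0.72 on the low side of the hybridization controls and −0.42 on the high side. LAMB2, a laminin chain of basement membranes, read 6.61, 7.07 and 5.88 with estrogen and 7.73, 8.0 and 8.01 after withdrawal, a difference of −1.39 (SE 0.30, adjusted p = 0.292) as deposited and −1.21 after quantile normalization. BCAS1 was near the array median in each estrogen node and above it in each withdrawn one, at 2.86, 2.60 and 2.79 in the estrogen nodes and 6.55, 5.13 and 3.83 in the withdrawn nodes. CCNG2, an unconventional cyclin linked to cell cycle arrest, read 7.66, 6.61 and 8.51 with the pellet and 10.41, 9.41 and 8.90 without it. TXNIP, which binds thioredoxin and limits glucose uptake, read 8.48, 7.43 and 9.06 with estrogen and 11.05, 9.43 and 9.97 after withdrawal. Their differences were −1.98 (SE 0.58) and −1.83 (SE 0.52). The cell death gene BIK read 5.90, 5.89 and 5.54 in the estrogen nodes and 7.34, 6.85 and 6.32 in the withdrawn nodes. FOXO3, a transcription factor of resting and starved cells, read 9.20, 8.08 and 9.51 with the pellet and 9.95, 9.70 and 9.63 without it. CDKN1A, which encodes the cell cycle inhibitor p21, was separated upward at 8.88, 9.30 and 9.01 with estrogen and 8.13, 8.56 and 7.62 after withdrawal, with a difference of 0.96 (SE 0.29).

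Genes that build ribosomes were higher with estrogen. Of 36 genes listed for ribosome assembly and RNA polymerase I, the enzyme that makes ribosomal RNA, 35 were on the array and all 35 were tested. This list too was chosen with earlier results of these data known. A positive difference was seen in 33 on each scale, where 47.8% of all genes tested had one as deposited and 52.6% after quantile normalization. The median was 0.75 as deposited and 0.83 after quantile normalization, 10 genes were separated upward and 0 downward, and 13 had an unadjusted p below 0.05 upward and 0 downward. The list means were 8.73, 8.31 and 8.52 in the estrogen nodes and 7.87, 8.06 and 7.51 in the withdrawn nodes, and after quantile normalization they were 8.46, 8.41 and 8.17 with the pellet and 7.46, 7.73 and 7.49 without it. On both scales the 3 estrogen means exceeded the 3 withdrawn means. The median lay between 0.48 without mouse 19 and 0.96 without mouse 10 when 1 array was left out. On the low side of the hybridization controls it was 0.59, with 35 of 35 differences positive, and on the high side it was 0.65, with 30 of 35.

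**Figure D2:**
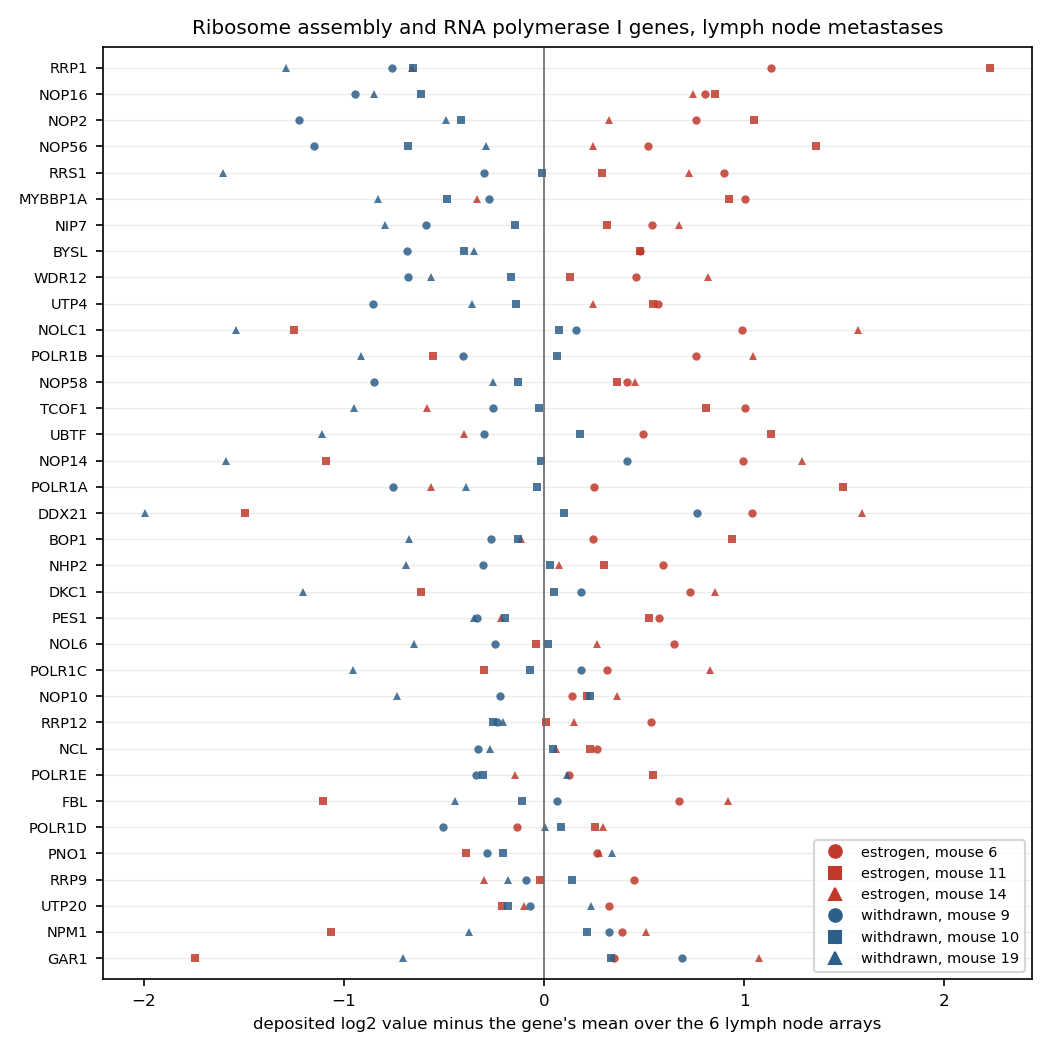
Deposited log2 value of each of the 35 tested ribosome assembly and RNA polymerase I genes in each lymph node array, minus the gene's mean over the 6 arrays, with genes ordered by their difference (red estrogen, blue withdrawn, 1 marker shape per mouse). The red points lie mostly right of 0 and the blue points mostly left; NPM1 and GAR1 at the bottom are the 2 genes with a negative difference, and mouse 11 is the lowest or next to lowest array for NOP14, DDX21, FBL, NPM1 and GAR1.

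Factors that work in the nucleolus were among the separated members. NOP16, a factor of the large subunit, read 9.21, 9.26 and 9.14 with estrogen and 7.46, 7.79 and 7.55 after withdrawal. The estrogen arrays lay within a narrow band well above the withdrawn ones, and the difference was 1.60 (SE 0.31, adjusted p = 0.239) as deposited and 1.64 after quantile normalization. NOP2, which methylates ribosomal RNA, read 10.84, 11.13 and 10.41 in the estrogen nodes and 8.86, 9.66 and 9.59 in the withdrawn nodes and differed by 1.42 (SE 0.36). NOP56, a core protein of the particles that methylate ribosomal RNA, read 9.76, 10.60 and 9.49 with the pellet and 8.09, 8.57 and 8.95 without it. Its partner NOP58 read 11.82, 11.77 and 11.86 with estrogen and 10.56, 11.28 and 11.15 after withdrawal. Both genes were separated upward. BYSL, which helps to assemble the small subunit, read 6.30, 6.30 and 6.30 in the estrogen nodes and 5.14, 5.42 and 5.47 in the withdrawn nodes. Its 3 estrogen values were equal to 2 decimals, and the difference was 0.96 (SE 0.21). WDR12 and BOP1 belong to the complex that processes the large subunit. WDR12 read 8.13, 7.80 and 8.49 with the pellet and 6.99, 7.51 and 7.10 without it. BOP1 read 5.15, 5.85 and 4.80 with estrogen and 4.65, 4.78 and 4.23 after withdrawal. PES1, the remaining member of that complex, read 7.36, 7.31 and 6.57 in the estrogen nodes and 6.45, 6.59 and 6.43 in the withdrawn nodes with overlapping groups. The polymerase subunits were less clearly apart: POLR1A, POLR1B, POLR1C, POLR1D and POLR1E had differences of 0.79, 0.83, 0.56, 0.28 and 0.35, with overlap in each on the deposited scale. NPM1, the abundant nucleolar protein nucleophosmin, differed by −0.11 (SE 0.44), and it was lowest in mouse 11 at 11.76.

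A wider list of ribosome assembly genes, written after the values of the first list were seen and sharing none of its members, gave smaller differences of the same sign. Of 105 genes tested, 89 were positive as deposited and 96 after quantile normalization, with a median of 0.38 and 0.49. There were 11 separated upward and 0 downward. WDR74, which works in the maturation of the large subunit, read 8.82, 8.71 and 8.25 with the pellet and 7.45, 7.88 and 7.0 without it. SURF6, a nucleolar matrix protein, read 9.48, 8.70 and 8.76 with estrogen and 8.24, 8.15 and 7.98 after withdrawal. Their differences were 1.15 (SE 0.28) and 0.86 (SE 0.25). The median lay between 0.26 without mouse 19 and 0.67 without mouse 11 when 1 array was left out. PPAN, another large subunit factor and one of the 15 genes with the most positive statistic, read 7.39, 8.16 and 6.87 in the estrogen nodes and 5.92, 6.14 and 5.92 in the withdrawn nodes and differed by 1.48 (SE 0.31). NPM3, a relative of NPM1 chosen after its values were seen, read 9.58, 9.17 and 9.35 with the pellet and 7.90, 8.46 and 6.40 without it.

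The structural proteins of the ribosome showed less. Of 65 cytosolic ribosomal protein genes tested, 45 were positive, 48 after quantile normalization, with a median of 0.11 and 0.10. That median lay between 0.030 without mouse 14 and 0.23 without mouse 11 when 1 array was left out, and it was 0.20 on the low side of the hybridization controls (53 of 65 positive) and −0.035 on the high side (31 of 65). RPL23, RPS28 and RPS10 were separated upward and 0 genes downward. Ribosomal protein genes have many processed pseudogenes that can share probes with them, so single members are uncertain. Mitochondrial ribosomal proteins, on a list also written after values were seen, were positive in 61 of 75 genes tested (64 after quantile normalization) with a median of 0.25 and 0.35, and 6 were separated upward and 0 downward. With 1 array left out this median lay between 0.053 without mouse 14 and 0.49 without mouse 11, and it was 0.31 on the low side of the hybridization controls (65 of 75 positive) and −0.021 on the high side (37 of 75). MRPS2 read 8.55, 8.32 and 8.63 with estrogen and 7.42, 7.78 and 7.05 after withdrawal, with a difference of 1.08 (SE 0.27). Translation initiation factors, on another such list, were positive in 23 of 41 genes on both scales, with a median of 0.12 and 3 genes separated upward. Their median turned with the array left out, lying between −0.067 without mouse 14 and 0.30 without mouse 11, and it was 0.14 on the low side of the hybridization controls (29 of 41 positive) and −0.17 on the high side (18 of 41).

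Several amino acid transporters were separated, as were the single genes FKBP11 and ISCA1. SLC7A5, which brings leucine and other large neutral amino acids into the cell, read 11.82, 9.82 and 11.15 in the estrogen nodes and 8.45, 9.39 and 7.34 in the withdrawn nodes, a difference of 2.54 (SE 0.84, adjusted p = 0.667) as deposited and 2.52 after quantile normalization. SLC7A11, the cystine carrier, read 4.69, 3.75 and 5.95 with the pellet and 3.75, 3.70 and 2.30 without it. SLC6A14, a broad amino acid carrier, read 8.53, 7.85 and 10.22 with estrogen and 7.69, 7.51 and 7.52 after withdrawal. SLC1A4, a carrier of alanine, serine and cysteine, was separated downward at 5.37, 4.74 and 5.82 in the estrogen nodes and 6.11, 6.44 and 6.25 in the withdrawn nodes. Over 30 amino acid transporters tested, 18 were positive, 4 were separated upward and 1 downward, and the median of 0.13 lay between −0.029 without mouse 14 and 0.14 without mouse 10 when 1 array was left out. FKBP11, a prolyl isomerase of the endoplasmic reticulum, read 11.34, 11.74 and 11.36 with the pellet and 9.99, 10.30 and 10.23 without it, a difference of 1.31 (SE 0.21, adjusted p = 0.205) as deposited and 1.31 after quantile normalization. Of 30 unfolded protein response genes tested, 12 were positive as deposited and 16 after quantile normalization, with a median of −0.11 and 0.029. CALR was separated upward, and VLDLR and XBP1 downward. With 1 array left out that median lay between −0.38 without mouse 19 and 0.24 without mouse 11. ISCA1, an iron-sulfur cluster assembly factor, read 9.13, 9.04 and 9.25 with estrogen and 7.86, 8.18 and 7.88 after withdrawal, with a difference of 1.17 (SE 0.21). The other probe sets of ISCA1 differed by −0.37 and 0.12.

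**Figure D3:**
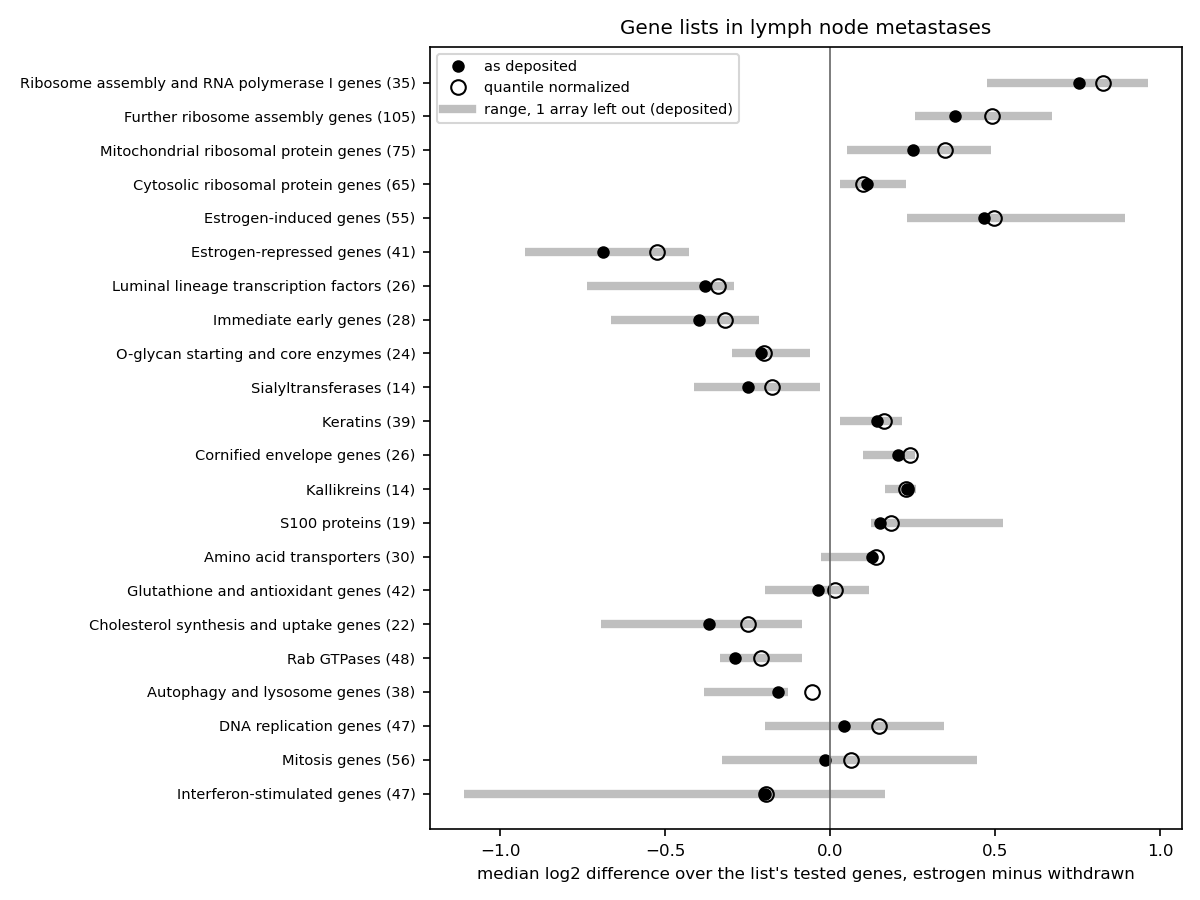
Median log2 difference, estrogen minus withdrawn, over the tested genes of 22 lists (number of genes in brackets), as deposited (filled circles) and after quantile normalization (open circles). Grey bars give the range of the deposited median when 1 of the 6 lymph node arrays is left out: ribosome assembly and estrogen-induced genes stay right of 0, estrogen-repressed genes, luminal factors and immediate early genes stay left, and the bars of the mitosis, DNA replication and interferon lists cross 0.

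Proliferation genes did not split the groups. Of 56 mitosis genes tested, 27 were positive as deposited and 31 after quantile normalization, the median was −0.016 and 0.064, and 0 genes were separated in either direction. The list means were 7.83, 6.65 and 8.13 in the estrogen nodes and 7.67, 7.91 and 6.99 in the withdrawn nodes. Mouse 14 was highest and mouse 11 lowest, with mouse 19 next to lowest, so the spread within each group was wider than the gap between them. Without mouse 11 the median was 0.45, and without mouse 14 it was −0.33. Of 47 DNA replication genes tested, 26 were positive (31 after quantile normalization), with a median of 0.042 and 0.15 that was 0.35 without mouse 11 and −0.20 without mouse 14. POLD2, a subunit of a replicative polymerase, was separated upward at 8.81, 8.66 and 7.98 with the pellet and 7.13, 7.74 and 7.21 without it, a difference of 1.13 (SE 0.28). CDT1, which loads the replicative helicase, read 11.50, 12.05 and 11.26 with estrogen and 9.92, 11.06 and 10.88 after withdrawal and was separated upward as well.

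Luminal lineage transcription factors were lower with estrogen in most members, but the list means of the groups overlapped. All 26 genes on the list were tested, and 7 were positive as deposited and 9 after quantile normalization. The median was −0.38 and −0.34, with 7 separated downward and 0 upward. The list means were 6.95, 6.24 and 7.06 with estrogen and 7.63, 7.37 and 6.80 after withdrawal. Mice 6 and 14 thus lay above the withdrawn mouse 19. After quantile normalization mouse 14 still did, at 6.792 against 6.786. TFAP2B, an AP-2 factor of mammary epithelium, read 2.60, 3.01 and 3.33 in the estrogen nodes and 5.12, 6.45 and 4.70 in the withdrawn nodes. The estrogen arrays stayed near the array median and the withdrawn arrays did not, and the difference was −2.44 (SE 0.47, adjusted p = 0.239) as deposited and −2.27 after quantile normalization, although the median difference over its 3 probe sets was −0.034. ELF3, an epithelial ETS factor, read 6.57, 5.75 and 7.31 with the pellet and 9.13, 8.19 and 7.78 without it, a difference of −1.82 (SE 0.49). GATA3, which maintains the luminal fate, read 11.84, 11.17 and 11.71 with estrogen and 12.37, 12.19 and 12.41 after withdrawal, a difference of −0.75 (SE 0.28). FOXA1, the pioneer factor that opens receptor binding sites, read 5.56, 4.48 and 6.82 in the estrogen nodes and 7.87, 7.13 and 6.21 in the withdrawn nodes, and the groups overlapped. The list median lay between −0.74 without mouse 19 and −0.29 without mouse 11 when 1 array was left out. The list overlaps the luminal markers given above, so both are 1 observation on these arrays.

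Homeobox genes of the HOX clusters, which mark position along the body axis and are active in mammary epithelium, formed a further group that was looked at after values were seen. Of 26 tested, 6 were separated downward and 1 upward, while the median was −0.027 on both scales. HOXB2 read 3.49, 3.82 and 3.21 with the pellet and 6.80, 5.69 and 6.39 without it, a difference of −2.79 (SE 0.50, adjusted p = 0.236) as deposited and −2.56 after quantile normalization. HOXC4 read 5.15, 4.03 and 6.12 with estrogen and 8.08, 7.24 and 7.04 after withdrawal. HOXC11 read 7.18, 6.07 and 7.15 in the estrogen nodes and 8.28, 7.92 and 7.89 in the withdrawn nodes. In each of these 3 genes every withdrawn array was above every estrogen array. HOXB7 read 5.36, 5.13 and 5.53 with the pellet and 6.84, 6.62 and 5.88 without it with a difference of −1.11 (SE 0.29), and 2 of 4 of its probe sets had that sign.

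Mucins and the enzymes that decorate them were read as separate lists. MUC1, the membrane mucin that coats the apical face of breast epithelium, read 9.19, 9.02 and 9.63 with estrogen and 11.74, 11.10 and 11.87 after withdrawal. The lowest withdrawn value exceeded the highest estrogen value by more than 1 log2 unit, and the difference was −2.29 (SE 0.26, adjusted p = 0.0875) as deposited and −2.09 after quantile normalization, with 2 of 2 probe sets of that sign. Of 16 mucin genes tested, 9 were positive and 7 negative, MUC1 included, and the median of 0.049 lay between −0.21 without mouse 11 and 0.14 without mouse 14 when 1 array was left out. MUC20 was separated upward at 3.49, 3.66 and 3.48 in the estrogen nodes and 2.84, 3.11 and 2.97 in the withdrawn nodes, where 3 of 6 of its probe sets had that sign. The secreted airway mucin MUC5B read 4.57, 4.76 and 3.98 with the pellet and 4.35, 4.68 and 4.09 without it. MUC16, the CA125 antigen, read 5.33, 8.21 and 4.75 with estrogen and 5.82, 5.50 and 6.70 after withdrawal with its highest value in mouse 11. Of 9 genes of the CEACAM adhesion family, a list added after values were seen, 3 were positive, CEACAM6 and CEACAM7 were separated downward and CEACAM21 upward, with a median of −0.13.

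Enzymes that begin and cap O-linked chains on mucins were lower with estrogen in part. ST6GALNAC2, which adds sialic acid to the first sugar of the chain, read 8.55, 7.94 and 8.53 in the estrogen nodes and 10.60, 10.17 and 10.30 in the withdrawn nodes, and the difference was −2.02 (SE 0.23, adjusted p = 0.0875) as deposited and −1.81 after quantile normalization. GALNT16, a member of the transferase family that attaches that first sugar, read 3.35, 3.42 and 3.58 with the pellet and 5.04, 4.89 and 5.36 without it, a difference of −1.65 (SE 0.26, adjusted p = 0.205) as deposited and −1.52 after quantile normalization. GALNT10 read 5.60, 5.63 and 6.65 with estrogen and 7.62, 7.59 and 6.94 after withdrawal. GALNT1 read 7.0, 5.61 and 7.55 in the estrogen nodes and 8.25, 7.74 and 7.91 in the withdrawn nodes. Both were separated downward, with differences of −1.42 (SE 0.33) and −1.25 (SE 0.47). Of the 24 starting and core enzymes tested, 9 were positive, 4 were separated downward and 0 upward, and the median of −0.21 was −0.060 without mouse 11. Of 14 sialyltransferases tested, 5 were positive, ST6GALNAC2 and ST8SIA4 were separated downward and ST3GAL3 upward. A4GALT, which makes the glycolipid Gb3, differed the other way at 8.33, 8.98 and 7.81 with the pellet and 6.50, 6.64 and 6.09 without it, a difference of 1.96 (SE 0.34, adjusted p = 0.236) as deposited and 2.02 after quantile normalization. ZG16B, a secreted lectin-like protein, was separated downward at 5.20, 4.66 and 5.23 with estrogen and 7.03, 6.61 and 6.96 after withdrawal, a difference of −1.84 (SE 0.26).

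Among growth factor receptors the ERBB and RET families had single members apart. ERBB4, the receptor for neuregulins that takes part in mammary differentiation, read 4.28, 3.05 and 6.03 in the estrogen nodes and 8.85, 7.68 and 9.15 in the withdrawn nodes, a difference of −4.10 (SE 0.69, adjusted p = 0.235) as deposited and −3.94 after quantile normalization. ERBB3, the receptor without an active kinase, read 7.68, 7.61 and 7.93 with the pellet and 8.57, 8.14 and 9.59 without it, and its groups were apart as deposited but not after quantile normalization. ERBB2 read 5.69, 5.92 and 5.75 with estrogen and 5.68, 5.83 and 5.86 after withdrawal, with a difference of −0.0033 (SE 0.22), and EGFR read 4.50, 6.61 and 5.10 in the estrogen nodes and 3.97, 4.83 and 7.08 in the withdrawn nodes with overlapping groups. LRIG2 was separated downward at 6.89, 5.04 and 6.73 with the pellet and 7.79, 7.58 and 7.83 without it, and no ligand of the family was separated on both scales. RET differed by −2.59 (SE 0.66, adjusted p = 0.467) as deposited and −2.39 after quantile normalization, while its ligand artemin, ARTN, was separated upward at 4.92, 4.86 and 5.33 with estrogen and 3.81, 4.21 and 3.60 after withdrawal, a difference of 1.16 (SE 0.26, adjusted p = 0.312) as deposited and 1.21 after quantile normalization. The coreceptor GFRA1 read 7.92, 5.32 and 8.92 in the estrogen nodes and 9.13, 8.53 and 8.64 in the withdrawn nodes, with the estrogen array of mouse 11 far below the rest. IGF1R, the insulin-like growth factor receptor, read 4.53, 4.44 and 4.40 with the pellet and 3.07, 3.56 and 3.24 without it, a difference of 1.17 (SE 0.25, adjusted p = 0.279) as deposited and 1.17 after quantile normalization. PIK3R3, a regulatory subunit of phosphoinositide 3-kinase, was separated downward at 7.95, 5.53 and 8.84 with estrogen and 10.77, 9.66 and 10.25 after withdrawal, a difference of −2.79 (SE 0.73).

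Activin, TGF-beta, BMP and WNT signalling held few separated genes, where 3.42% of all genes tested were separated upward and 4.22% downward. Of 14 inhibin and activin genes tested 8 were positive, with a median of 0.10, 1 separated upward and 1 downward. Of 25 TGF-beta and SMAD genes 7 were positive, with a median of −0.25, 0 separated upward and 2 downward. The TGF-beta and SMAD median lay between −0.45 without mouse 19 and −0.033 without mouse 9 when 1 array was left out. Of 22 BMP genes 14 were positive, with a median of 0.047, 0 separated upward and 1 downward. Of 44 WNT genes 27 were positive, with a median of 0.054, 2 separated upward and 1 downward. INHBB, the beta B subunit of inhibins and activins, read 4.37, 3.24 and 4.95 in the estrogen nodes and 8.48, 8.16 and 6.82 in the withdrawn nodes, a difference of −3.64 (SE 0.55, adjusted p = 0.205) as deposited and −3.48 after quantile normalization. INHA, the alpha subunit of inhibins, read 4.21, 5.43 and 3.86 with the pellet and 2.96, 4.0 and 2.77 without it. INHBA, the beta A subunit, was separated upward at 3.32, 3.71 and 3.31 with estrogen and 3.01, 3.01 and 3.14 after withdrawal. None of the activin receptors was separated, and ACVR1B, a type I receptor, read 8.72, 7.09 and 9.23 in the estrogen nodes and 9.45, 9.11 and 8.95 in the withdrawn nodes. BAMBI, a decoy receptor that blocks TGF-beta and BMP signals, read 11.06, 11.04 and 11.93 with the pellet and 12.66, 12.25 and 12.83 without it, a difference of −1.24 (SE 0.31). RNF43, a ligase that removes WNT receptors from the surface, read 7.46, 6.99 and 7.64 with estrogen and 9.60, 9.03 and 9.24 after withdrawal, a difference of −1.93 (SE 0.38, adjusted p = 0.239) as deposited and −1.73 after quantile normalization. The receptor FZD10, at 2.47, 2.65 and 2.56 in the estrogen nodes and 2.29, 2.42 and 2.38 in the withdrawn nodes, and the ligand WNT5B, at 2.93, 2.98 and 3.02 with the pellet and 2.76, 2.80 and 2.88 without it, were separated upward. Both read near the array median, so these differences carry little signal. DUSP9, a phosphatase of MAP kinases, was separated upward at 5.99, 4.69 and 4.64 with estrogen and 3.58, 3.93 and 3.28 after withdrawal, a difference of 1.51 (SE 0.37).

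Of 19 S100 genes tested, 12 were positive, 4 were separated upward and 1 downward, and the median of 0.15 was 0.53 without mouse 14. It was −0.072 on the low side of the hybridization controls (8 of 19 positive) and 0.98 on the high side (16 of 19). S100A7, psoriasin, read 10.43, 11.55 and 10.11 in the estrogen nodes and 5.34, 8.20 and 7.52 in the withdrawn nodes, a difference of 3.68 (SE 0.69, adjusted p = 0.239) as deposited and 3.56 after quantile normalization. The withdrawn arrays ranged widely, from 5.34 in mouse 9 to 8.20 in mouse 10, and the lowest estrogen value was above all of them. S100A9 read 8.77, 11.84 and 7.11 with the pellet and 4.31, 7.01 and 6.16 without it. Its partner S100A8 read 12.85, 13.39 and 12.46 with estrogen and 9.91, 12.30 and 11.72 after withdrawal. Mouse 11 was highest for both. S100A7A, a close copy of S100A7 whose probes may also read it, read 5.63, 4.51 and 4.30 in the estrogen nodes and 3.35, 3.85 and 3.42 in the withdrawn nodes. S100A13 was separated downward at 9.83, 8.98 and 10.50 with the pellet and 10.88, 10.59 and 10.57 without it. SPRR1B, a cornified envelope protein of stratified epithelia, read 8.02, 13.16 and 9.36 with estrogen and 4.88, 7.65 and 7.69 after withdrawal, a difference of 3.44 (SE 1.25), and the value in mouse 11 was the highest. The myeloid markers given above, which S100A8 and S100A9 share as abundant neutrophil genes, and the basal markers were highest in mouse 11 too, and their part in these values was not tested.

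Small positive differences ran through related families of stratified epithelium. Of 26 cornified envelope genes tested 21 were positive (23 after quantile normalization), with a median of 0.21 and 0.24. Only 2 were separated upward and 0 downward. The list mean of estrogen mouse 6, at 4.21, lay below those of withdrawn mice 10 and 19, at 4.22 and 4.23. Of 14 kallikreins, a cluster of secreted serine proteases, 13 were positive (14 after quantile normalization), with a median of 0.23 on both scales. Among them 2 were separated upward and 0 downward, and the list means were low, from 3.54 to 4.21. The cornified envelope and kallikrein lists overlap, with KLK10 on both, so their counts are not separate observations. KLK6 read 6.62, 9.04 and 8.61 in the estrogen nodes and 4.49, 7.01 and 4.65 in the withdrawn nodes, with overlap, and KLK10 read 4.13, 4.80 and 4.27 with the pellet and 3.72, 3.70 and 3.80 without it. The other probe set of KLK10 differed by −0.34. Of 39 keratins tested, 28 were positive, with a median of 0.14 and 4 genes separated upward. KRT9 read 5.23, 5.13 and 6.07 with estrogen and 3.47, 3.39 and 2.88 after withdrawal, a difference of 2.23 (SE 0.30, adjusted p = 0.151) as deposited and 2.23 after quantile normalization, and KRT23 read 8.43, 8.20 and 5.89 in the estrogen nodes and 5.0, 5.86 and 4.36 in the withdrawn nodes, a difference of 2.43 (SE 0.65). The medians of these 3 lists lay between 0.10 without mouse 11 and 0.26 without mouse 14, between 0.17 without mouse 6 and 0.26 without mouse 14 and between 0.031 without mouse 11 and 0.22 without mouse 14 when 1 array was left out. On the low side of the hybridization controls, 15 of 26 cornified envelope genes, 11 of 14 kallikreins and 22 of 39 keratins were positive. FERMT1, the kindlin of epithelial adhesion sites, was among the 15 genes with the most positive statistic at 5.28, 5.51 and 5.56 with the pellet and 3.86, 3.49 and 4.44 without it. PKP1, a desmosome plakophilin, read 7.34, 6.32 and 5.92 with estrogen and 4.91, 5.14 and 5.35 after withdrawal.

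Proteases and their inhibitors had separated members in both directions. Of 36 matrix proteases and inhibitors tested, 22 were positive on each scale, with a median of 0.066 and 0.17. ADAMTS4, ADAMTS9, MMP3, PLAT and TIMP4 were separated upward, and ADAM8, MMP16 and TIMP3 downward. ADAMTS4 read near the array median, at 2.63, 2.72 and 2.74 with estrogen and 2.57, 2.34 and 2.46 after withdrawal. ADAMTS9 differed by 0.19, with its lowest estrogen value at 3.373 and its highest withdrawn value at 3.369. Both carry little signal. CSTA, cystatin A, an inhibitor of cysteine cathepsins in epithelia, read 10.96, 11.33 and 11.74 in the estrogen nodes and 13.74, 13.43 and 14.21 in the withdrawn nodes, a difference of −2.45 (SE 0.36, adjusted p = 0.165) as deposited and −2.56 after quantile normalization. Of 16 cystatin family genes tested, 9 were positive and CSTA and CST4 were separated downward. TIMP3, an inhibitor of matrix metalloproteinases that stays bound to the matrix, read 7.88, 8.14 and 8.70 with the pellet and 10.79, 10.46 and 10.02 without it, a difference of −2.18 (SE 0.39, adjusted p = 0.236) as deposited and −1.98 after quantile normalization, with 4 of 4 probe sets of that sign. ADAM8, a membrane metalloproteinase, read 4.43, 4.0 and 4.27 with estrogen and 6.42, 6.49 and 5.77 after withdrawal, a difference of −1.99 (SE 0.32). MMP16, a membrane-type matrix metalloproteinase, read 5.84, 3.11 and 5.29 in the estrogen nodes and 7.92, 7.62 and 7.17 in the withdrawn nodes, a difference of −2.82 (SE 0.71). TMPRSS2, a membrane serine protease of epithelia, read 4.88, 4.51 and 5.46 with the pellet and 6.75, 6.39 and 6.98 without it, a difference of −1.76 (SE 0.27, adjusted p = 0.205) as deposited and −1.58 after quantile normalization. PLAT, the tissue plasminogen activator, was separated upward at 5.83, 4.26 and 3.87 with estrogen and 3.11, 2.63 and 3.09 after withdrawal, a difference of 1.71 (SE 0.69).

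Metallothioneins, small proteins that bind zinc and copper, did not share 1 direction. MT1F read 7.24, 6.46 and 7.43 in the estrogen nodes and 9.65, 9.73 and 9.78 in the withdrawn nodes, a difference of −2.68 (SE 0.32, adjusted p = 0.0875) as deposited and −2.43 after quantile normalization with the 3 withdrawn values close together. MT2A, separated downward by a narrow margin, read 12.03, 11.75 and 12.09 with the pellet and 12.37, 12.52 and 12.11 without it. MT1X read 7.55, 7.05 and 6.94 with estrogen and 7.25, 8.34 and 6.58 after withdrawal with overlap. MT3 was separated upward at 5.48, 5.20 and 5.24 in the estrogen nodes and 5.08, 5.02 and 4.76 in the withdrawn nodes. Of 9 genes tested, counting the regulator MTF1, 5 were positive, and the median of 0.11 lay between −0.14 without mouse 11 and 0.15 without mouse 14 when 1 array was left out. The sequences of metallothioneins are close to each other, so a probe set may read more than 1 of them.

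Immediate early genes, which growth factors, hormones and stress can switch on quickly, read lower with estrogen in most members as deposited, but not on the high side of the hybridization controls. DUSP1, a phosphatase that shuts off MAP kinases, read 7.67, 6.88 and 7.51 with the pellet and 8.86, 8.89 and 8.48 without it, a difference of −1.39 (SE 0.29, adjusted p = 0.277) as deposited and −1.21 after quantile normalization. IER3 read 10.05, 10.32 and 11.43 with estrogen and 12.61, 12.06 and 11.76 after withdrawal, a difference of −1.54 (SE 0.41), and ZFP36, which speeds the decay of inflammatory messengers, read 9.45, 8.66 and 9.20 in the estrogen nodes and 10.72, 10.43 and 9.62 in the withdrawn nodes. JUN read 5.97, 6.77 and 6.13 with the pellet and 8.27, 7.52 and 6.48 without it. EGR1 read 7.74, 5.66 and 6.25 with estrogen and 8.89, 8.74 and 7.23 after withdrawal, and in both the withdrawn value of mouse 19 lay within the range of the estrogen arrays. FOSL2, a partner of JUN, was separated upward with MYC, at 7.51, 9.81 and 7.76 in the estrogen nodes and 7.48, 7.40 and 6.93 in the withdrawn nodes. Of 28 genes tested, 7 were positive on each scale, the median was −0.40 and −0.32, and 4 were separated downward and 2 upward. It lay between −0.66 without mouse 14 and −0.21 without mouse 9 when 1 array was left out, and it was −0.59 on the low side of the hybridization controls (6 of 28 positive) and 0.0069 on the high side (14 of 28). TSC22D3, the leucine zipper gene known for its response to glucocorticoids, read 5.93, 6.28 and 8.41 with the pellet and 10.97, 9.93 and 9.66 without it, a difference of −3.31 (SE 0.63, adjusted p = 0.239) as deposited and −3.07 after quantile normalization, while 1 of 3 of its probe sets had that sign. SGK1, another glucocorticoid-responsive gene, differed the other way at 8.16, 6.63 and 7.87 with estrogen and 6.60, 6.88 and 5.57 after withdrawal, and over the 24 tested genes of that list 9 were positive.

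Interferon-stimulated genes split the estrogen arrays among themselves. The list means of 47 genes were 5.45, 8.43 and 5.97 in the estrogen nodes and 6.78, 6.90 and 6.92 in the withdrawn nodes. Mouse 11 lay above every withdrawn array, and mice 6 and 14 lay below every withdrawn array. MX2, an antiviral GTPase chosen after its values were seen, read 3.01, 10.66 and 4.14 with the pellet and 5.18, 4.92 and 4.92 without it. IFIT3, of the same pathway, read 3.09, 9.91 and 2.50 with estrogen and 5.29, 4.95 and 4.84 after withdrawal. The median difference was −0.20 on both scales, with 16 of 47 positive as deposited, and it was −1.11 without mouse 11, 0.17 without mouse 6 and 0.082 without mouse 14. It was −0.97 on the low side of the hybridization controls, with 4 of 47 positive, and 1.36 on the high side, with 40 of 47. GBP2, an interferon-inducible GTPase, was separated downward at 7.02, 7.05 and 7.80 in the estrogen nodes and 9.04, 9.24 and 10.39 in the withdrawn nodes, a difference of −2.26 (SE 0.44, adjusted p = 0.239) as deposited and −2.03 after quantile normalization, and HERC5, a ligase for the ubiquitin-like protein ISG15, was separated upward at 7.46, 11.09 and 7.27 with the pellet and 5.26, 5.91 and 6.38 without it.

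**Figure D4:**
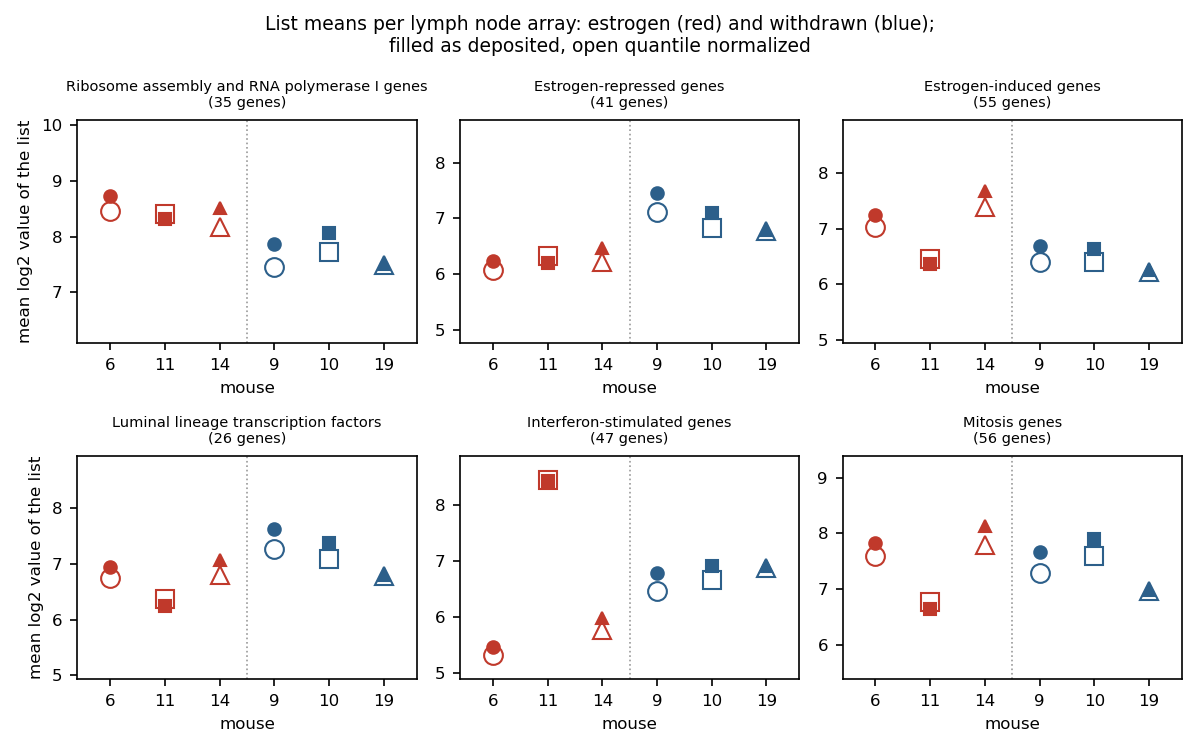
Mean log2 value of 6 gene lists in each lymph node array, labelled by mouse, as deposited (filled) and after quantile normalization (open), with estrogen arrays in red and withdrawn arrays in blue. The estrogen arrays lie above the withdrawn ones for ribosome assembly and below them for estrogen-repressed genes; for the interferon list mouse 11, at 8.43, is above and mice 6 and 14, at 5.45 and 5.97, are below all withdrawn arrays.

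Other immune and inflammatory genes gave single separated members. IL1RN, the antagonist of the interleukin-1 receptor, read 6.95, 7.14 and 6.88 with estrogen and 5.40, 4.68 and 5.13 after withdrawal, a difference of 1.92 (SE 0.23, adjusted p = 0.0875) as deposited and 1.96 after quantile normalization, although 1 of 3 of its probe sets had that sign. The cytokines IL1A and IL1B stayed near the array median. IL1A read 2.33, 2.18 and 2.49 in the estrogen nodes and 2.24, 2.25 and 2.65 in the withdrawn nodes. IL1B read 2.63, 3.06 and 2.44 with the pellet and 2.32, 2.52 and 2.39 without it. Of 18 interleukin-1 family genes tested, 11 were positive, and IRAK1, a kinase of the receptor complex, was separated upward at 11.50, 10.83 and 11.65 with estrogen and 10.73, 10.81 and 10.81 after withdrawal. BCL3, a partner of NF-kappaB, was separated downward at 5.21, 5.75 and 5.03 in the estrogen nodes and 6.71, 6.43 and 6.72 in the withdrawn nodes, a difference of −1.29 (SE 0.23). The chemokine receptor CXCR4, linked to homing of tumor cells to nodes, read 6.27, 5.41 and 8.33 with the pellet and 10.32, 9.22 and 8.28 without it. ACKR3, the other receptor for the same ligand, read 4.79, 4.30 and 5.80 with estrogen and 8.29, 6.69 and 6.77 after withdrawal. ACKR3 was separated downward by −2.29 (SE 0.50), and the groups of CXCR4 overlapped as deposited, by mouse 14 with estrogen and mouse 19 after withdrawal. Of 21 MHC class I and antigen processing genes tested, 8 were positive, with a median of −0.11. It lay between −0.26 without mouse 11 and 0.080 without mouse 14 when 1 array was left out, and it was −0.57 on the low side of the hybridization controls (7 of 21 positive) and 0.54 on the high side (15 of 21).

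Cell death and p53 genes had members on either side. FAS, a death receptor, was separated upward at 5.23, 5.28 and 5.85 in the estrogen nodes and 4.24, 4.90 and 3.94 in the withdrawn nodes. BID, which carries the death signal to mitochondria, was separated upward too at 8.19, 9.27 and 7.74 with the pellet and 6.72, 7.23 and 7.05 without it. GADD45G, a stress sensor that slows growth, was separated downward at 3.32, 2.68 and 3.92 with estrogen and 5.26, 4.16 and 4.86 after withdrawal, a difference of −1.46 (SE 0.39). MCL1, a survival protein, read 11.86, 11.81 and 11.80 in the estrogen nodes and 12.41, 12.12 and 12.12 in the withdrawn nodes. Of 22 BCL2 family genes tested 13 were positive, with a median of 0.11, and of 27 p53 target genes 15 were positive, with a median of 0.085 as deposited and 0.21 after quantile normalization. The first median lay between 0.025 without mouse 10 and 0.16 without mouse 6 and the other between −0.075 without mouse 19 and 0.13 without mouse 9 when 1 array was left out.

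Lists of vesicle traffic, autophagy and cholesterol synthesis had negative medians. All genes tested with a mean of 6 to 8 had a median of −0.16 as deposited and −0.022 after quantile normalization, and the autophagy list as deposited was at that level. Of 48 Rab GTPases tested, 13 were positive (16 after quantile normalization), with a median of −0.29 and −0.21, and 5 were separated downward and 0 upward. That median was −0.085 without mouse 11. RAB27B, which docks secretory vesicles, read 6.98, 6.83 and 8.78 with the pellet and 10.86, 10.43 and 9.29 without it, a difference of −2.66 (SE 0.57, adjusted p = 0.292) as deposited and −2.46 after quantile normalization. Of 38 autophagy and lysosome genes 9 were positive as deposited and 15 after quantile normalization, with medians of −0.16 and −0.054, and GABARAP, a protein of the growing autophagosome, read 10.73, 9.61 and 10.58 with estrogen and 11.32, 11.11 and 11.38 after withdrawal. Of 22 genes of cholesterol synthesis and uptake 5 were positive, with a median of −0.37 that lay between −0.69 without mouse 19 and −0.086 without mouse 11 when 1 array was left out. LSS, which closes the rings of lanosterol, read 8.71, 7.31 and 8.81 in the estrogen nodes and 9.44, 8.90 and 8.88 in the withdrawn nodes.

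Detoxifying enzymes and hormone-metabolizing enzymes gave further separated genes. GSTM3, a glutathione transferase, read 3.43, 2.65 and 2.98 with the pellet and 4.69, 4.02 and 6.29 without it, a difference of −1.98 (SE 0.65), and MGST1, its membrane-bound relative, read 9.30, 6.84 and 10.06 with estrogen and 10.44, 10.35 and 10.56 after withdrawal, with the lowest value in mouse 11. Of 42 glutathione and antioxidant genes tested, 5 were separated downward and 1 upward, and the median was −0.036 as deposited and 0.015 after quantile normalization. As deposited it lay between −0.20 without mouse 14 and 0.12 without mouse 11 when 1 array was left out. HSD17B11, a short-chain dehydrogenase that acts on steroids, read 4.36, 2.93 and 5.78 in the estrogen nodes and 7.68, 7.11 and 6.82 in the withdrawn nodes, a difference of −2.85 (SE 0.61, adjusted p = 0.292) as deposited and −2.74 after quantile normalization. CYP1B1, which hydroxylates estradiol, was separated upward at 3.73, 4.61 and 5.64 with the pellet and 3.44, 2.87 and 3.48 without it. NCOA1, a coactivator of steroid receptors, was separated downward at 6.61, 5.44 and 7.14 with estrogen and 7.62, 7.40 and 7.84 after withdrawal, a difference of −1.22 (SE 0.40). The other probe sets of NCOA1 differed by −0.034, 0.18 and −0.34. ENO2, an enolase of glycolysis, was separated downward at 6.12, 5.79 and 6.33 in the estrogen nodes and 7.65, 7.50 and 6.78 in the withdrawn nodes. PFKM, the muscle-type phosphofructokinase, was separated upward at 10.43, 9.75 and 9.90 with the pellet and 9.57, 9.51 and 9.35 without it.

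Some of the genes with the strongest statistics belonged to none of the lists. PPFIBP2, a liprin of cell junctions, read 4.54, 4.41 and 5.12 with estrogen and 6.82, 6.29 and 7.02 after withdrawal, a difference of −2.02 (SE 0.28, adjusted p = 0.151) as deposited and −1.83 after quantile normalization. GPR39, a zinc-sensing receptor, read 4.16, 4.76 and 4.94 in the estrogen nodes and 6.12, 6.31 and 6.58 in the withdrawn nodes, a difference of −1.71 (SE 0.24, adjusted p = 0.152) as deposited and −1.51 after quantile normalization. SHANK2, a scaffold protein, read 3.21, 3.14 and 3.55 with the pellet and 5.98, 5.45 and 4.90 without it, a difference of −2.14 (SE 0.35). LMCD1, a LIM domain protein, read 5.16, 5.28 and 6.52 with estrogen and 8.75, 8.21 and 8.40 after withdrawal, a difference of −2.80 (SE 0.47). GPC1-AS1, annotated as the antisense partner of glypican 1, read 4.14, 4.23 and 5.13 in the estrogen nodes and 8.27, 7.96 and 7.74 in the withdrawn nodes, a difference of −3.50 (SE 0.55, adjusted p = 0.205) as deposited and −3.28 after quantile normalization. The strand that its probe set reads is not given in the sources used here, so the antisense gene and its partner cannot be told apart. On the other side, AMER1, an inhibitor of WNT signalling, read 4.75, 4.72 and 4.42 with the pellet and 3.47, 3.68 and 3.42 without it, a difference of 1.11 (SE 0.21). DTX4, a ubiquitin ligase of the Notch pathway, read 7.0, 6.55 and 6.80 with estrogen and 5.78, 5.89 and 5.85 after withdrawal, a difference of 0.95 (SE 0.19). TRABD and TTC39C differed by 1.20 (SE 0.21) and 1.30 (SE 0.27).

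A few genes passed the adjusted threshold only under another processing choice. With the mean of all probe sets of a gene, MUC1 and ST6GALNAC2 did so (limma, adjusted p = 0.0394 for both). With the side of the hybridization controls as a covariate, INHBB (adjusted p = 0.0144) and ST6GALNAC2 (adjusted p = 0.0425) did. Without the estrogen array of mouse 11, 9 genes passed: LINC00052, LOXL4, MAOB, NPY1R and TSKU upward, and MT1F, OAS2, ST6GALNAC2 and XAF1 downward. LINC00052, a long noncoding RNA, read 8.59, 2.45 and 7.87 in the estrogen nodes and 2.05, 2.64 and 2.50 in the withdrawn nodes. NPY1R, a neuropeptide Y receptor raised by estrogen in breast cancer cells, read 6.64, 2.41 and 7.59 with the pellet and 2.75, 3.02 and 2.49 without it. In both genes mice 6 and 14 were high and mouse 11 read like the withdrawn arrays. MAOB, a monoamine oxidase, read 6.76, 3.47 and 5.94 with estrogen and 2.54, 2.89 and 2.37 after withdrawal. TSKU, a secreted leucine-rich protein, read 7.07, 5.32 and 7.75 in the estrogen nodes and 4.56, 4.67 and 4.23 in the withdrawn nodes. In these genes mouse 11 lay between the other estrogen arrays and the withdrawn ones.

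The same comparison in the primary tumors set mice 11 and 14 with estrogen against mice 10 and 19 after withdrawal, and the 2 estrogen arrays there spanned fewer log2 units, with 99th percentiles of 9.44 and 10.0 against 11.4 to 11.7. The difference of the responses passed an adjusted p of 0.05 for 2 of 17170 genes (0.0116%), NDRG3 and SLC38A2-AS1, both high in the 2 primary tumors with estrogen alone. This count passed from 2 to 1543 without the estrogen node array of mouse 11, to 194 without the estrogen primary tumor array of mouse 14, to 3390 with the side of the hybridization controls as a covariate and to 0 without any 1 of the other 8 arrays. Among the 346 genes named by rule the smallest adjusted p was 0.128, for GABARAPL2. MUC1 differed by −2.93 in the primary tumors as deposited and by −1.74 after quantile normalization, and the adjusted p of the difference of responses was 0.647. INHBB differed by −3.69 and −3.44 there, S100A7 by 4.34 and 5.31, and IL1RN by 2.19 and 2.89. ST6GALNAC2 differed by −1.27 as deposited and 0.017 after quantile normalization. NOP16 differed by −0.084 and 1.12, so its value in the primary tumors turned on the scale. The adjusted p-values of the difference of responses for these 5 genes lay between 0.243 and 0.992, and a p that misses the threshold does not show that the sites responded alike.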

How the data were processed

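Gene expression was measured on 10 arrays of laser-captured human tumor cells grown in mice. Each array came from 1 site of 1 mouse, so the 3 arrays of a lymph node group are 3 animals, as the mouse numbers in the labels show. The authors deposited 1 log2 value per probe set and array, and the submitters' processing notes name RMA and Partek, for which versions and settings are not given in the sources used here. The values were used as deposited, and quantile normalization between all 10 arrays was run beside them.

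Of 61359 probe sets, 44532 had exactly 1 symbol in the platform annotation, whose symbols can be old, 1492 had several, 15273 were unnamed here and 62 were controls. Each of 19556 genes was read from 1 probe set, that of the greatest average across the 10 arrays, and 2386 genes with a mean below 2.31, the 25th percentile of the probe set means, were left out. All 10 arrays entered 1 limma fit (limma 3.58.1, R 4.3.3) with a mean for each of 4 site and treatment groups, mouse as a random block, a prior of 2.66 degrees of freedom and Benjamini-Hochberg adjustment over 17170 genes. The fit was tested on simulated data with independent normal noise for each gene. The simulation had no mouse effect, no outlying array and no array of narrow range, so it does not cover these features of the real arrays. Standard errors come from the fit of the real arrays.

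The pairing was checked once. It comes from the animals, since 4 mice gave both sites, and the lymph node groups share no mouse. Deviations from the group means correlated at 0.176, −0.208, −0.21 and 0.0831 in mice 10, 11, 14 and 19, and the correlation used for the block was −0.042. The primary tumor groups held only mice 11 and 14 and only mice 10 and 19. Deviations within each of these groups mirror each other by construction, so the correlations are not independent of each other.

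The gene lists and members were chosen with earlier results of these data known. Of the lists, 5 (further ribosome assembly, mitochondrial ribosomal proteins, HOX genes, translation initiation factors and CEACAM genes) were added after values were seen. Genes were named by a rule: the 15 separated genes with the highest and the 15 with the lowest moderated statistic, up to 6 separated members of each list, all members of 10 small families and 6 fixed genes including ESR1, PGR, GREB1, TFF1 and MYC. Other genes named, among them those that passed only under an alternative, were chosen after their values were seen. Alternatives were the normalization, the filter, the mean of all probe sets, the arrays in the fit, the block, the side of the hybridization controls and each array left out.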

Additional observations from a re-analysis of the deposited data

Results flagged for a closer look

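The response to estrogen differed between lymph node and primary tumor for NDRG3 and SLC38A2-AS1 by the test of the difference itself (limma, adjusted p = 0.0382 and 0.0416). NDRG3 read 5.88, 6.14 and 6.09 in the estrogen nodes and 6.07, 6.08 and 6.72 in the withdrawn nodes. In the primary tumors it read 10.58 and 10.25 with estrogen and 6.24 and 6.57 after withdrawal, and the difference of responses was −4.26. SLC38A2-AS1 read 3.52, 4.63 and 4.09 in the estrogen nodes and 3.44, 3.65 and 3.93 in the withdrawn nodes. In the primary tumors it read 9.16 and 9.31 with estrogen and 4.03 and 4.27 after withdrawal, and the difference of responses was −4.68. The 2 primary tumor arrays with estrogen are those with the narrow range of values, and their part in both differences was not tested.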

How the results depend on the processing

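The count of genes called in the lymph node was 0 as deposited, 2 with the mean of all probe sets and 2 with the side of the hybridization controls as a covariate, and it lay between 0 and 9 when 1 array was left out. Without mouse as a block (no replicate block) it was 0, with 361 genes higher and 641 lower at an unadjusted p below 0.05. The unadjusted counts of 359 higher and 643 lower were 601 and 1407 with the hybridization covariate, and they ranged from 213 to 895 and from 346 to 1462 with 1 array left out. Genes without overlap as deposited, 767 higher and 938 lower, numbered 1028 to 2439 and 1368 to 2472 with 1 array left out, where fewer arrays make separation easier by construction. The difference of responses, called for 2 genes, was called for 1 after quantile normalization, 4 with no filter, 1 with the mean of all probe sets, 3390 with the hybridization covariate, 3 without the block and 0 to 1543 with 1 array left out. The cause of these shifts was not tested. Of 198 genes followed under 17 settings, 1 value turned: EPHA7, at −0.33, was 0.00092 with the mean of all probe sets. Another 6 values passed the threshold only under an alternative, and 3346 kept their direction and their side of it; a gene that a stricter filter leaves untested has no value there. With 3 arrays a group, small differences could not be told from the spread between mice, and values near the array median carry little signal.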
